A study of Homo sapiens with 5 samples.

Results

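Lower glycolysis and lactate dehydrogenase were represented by 10 genes, chosen by name from the deposited table: the aldolases ALDOA and ALDOC, the triosephosphate isomerase TPI1, GAPDH, PGK1, PGAM1, the enolases ENO1 and ENO2, the pyruvate kinase PKM and the lactate dehydrogenase LDHA. All 10 symbols matched 1 row each of 57773, and all 10 averaged 1 TPM or more (a length-scaled share of all transcripts in a library), as did 14177 rows in all. The libraries came from HCT116, a human colorectal carcinoma line, with Dicer knocked out according to the series' design text. Dicer cuts mature microRNAs from their precursors, and its loss applies to every group, the control included. Of the 5 libraries, 1 was transfected with a negative control, 1 with native let-7a, 1 with a let-7a labelled methylated and 19A, 1 with native miR-17, and 1 with a miR-17 labelled methylated and 13A. The sources used here do not give the kind of methyl group, the dose, the time after transfection or the number of knockout clones. By its title, the study asked how methylation of a microRNA bears on the breakdown of its target mRNAs.

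Each group holds 1 library, so every difference is between 2 libraries, has no replicate check and no p-value, and may include variation between cultures or library preparations. Read depth is unknown, since only TPM values to 1 decimal were used here. Between 14173 and 14396 genes per library reached 1 TPM, mitochondrial transcripts took 9.36% to 12.6% of the TPM and cytosolic ribosomal protein genes 14.2% to 17.6%. Of 10 colon epithelial markers, 7 were at 1 TPM or more in all libraries (summed level 7178.1 to 8803.0 TPM), led by the keratins and EPCAM, while VIL1 was listed at 0 throughout and CDH17 and LGALS4 did not exceed 0.2 TPM. The 6 mesenchymal markers summed to 14.9 to 22.4 TPM and the 6 blood and endothelial markers found in the table to 2.4 to 4.6 TPM, with DCN, PTPRC and HBB listed at 0 throughout.

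Glycolysis splits glucose into a pair of triose sugars and oxidises them to pyruvate. Its lower arm regains the ATP spent above and reduces NAD+ at the GAPDH step, and lactate dehydrogenase returns the NAD+ by reducing pyruvate to lactate. Many of these genes are textbook targets of the hypoxia-inducible factors (HIF), which bind the core letters ACGTG or GCGTG, and their transcripts are abundant in most tumour lines.

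The transfected sequences were not given in the labels. The RefSeq mature forms (table build GRCh38.p14) are printed here because the search for sites in the members rests on their seeds, bases 2 to 8 from the 5′ end, which stand in capitals.
hsa-let-7a-5p: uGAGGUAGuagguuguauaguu
hsa-miR-17-5p: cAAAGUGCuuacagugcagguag
Counted from the 5′ end, base 19 of the first and base 13 of the second are adenosines (A19 and A13), and the numbers in the labels were read as these positions. Both lie outside the seed.

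The members were searched for matches to either seed. A site was a match to bases 2 to 8, or to bases 2 to 7 followed by an A, in any 3′ untranslated region (3′ UTR) annotated in GENCODE 29. Of the 10 members, 1 had a let-7a site, against 19.4% of the 12019 expressed genes searched, and 2 had a miR-17 site, against 33.7%. With 10 members, these counts are too small to set them apart from the searched genes. The ALDOC site and the ENO2 site are shown with 10 bases on each side, as DNA letters, with the matched bases in capitals.
ALDOC, let-7a site: gggtctccccCTACCTCttccagctcc
ENO2, miR-17 site: ttggggttccGCACTTTccacttcttc
Both were matches to bases 2 to 8 without the following A. The longest 3′ UTR of the members ran from 204 bases (GAPDH) to 3466 bases (PGK1), with a median of 593.0, against 1357.0 over the searched genes. The ALDOC site starts at base 250 of a 3′ UTR of 411 bases on chromosome 17, and the ENO2 site at base 209 of 898 on chromosome 12. Which of the annotated 3′ UTRs the cells use, and whether these sites act in them, was not tested.

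All 10 members were highest in the negative control. The members together summed to 21898.3 TPM in the control, 2.19% of the library, to 15458.1 and 18014.5 TPM with the native and the methylated let-7a, and to 13817.8 and 15693.2 TPM with the native and the methylated miR-17. The sum was thus 70.6%, 82.3%, 63.1% and 71.7% of that in the control. GAPDH alone made up as much as 51.2% of it (methylated miR-17), so the sum mainly follows that gene. Methylated let-7a stood second for 9 of 10 members, and native miR-17 stood lowest for 9 of 10. PGAM1 was the exception to both statements. These orders, and how often the control was highest, were not counted over all genes. In bulk RNA, fewer cells with a transcript and fewer copies per cell cannot be told apart.

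**Figure D1:**
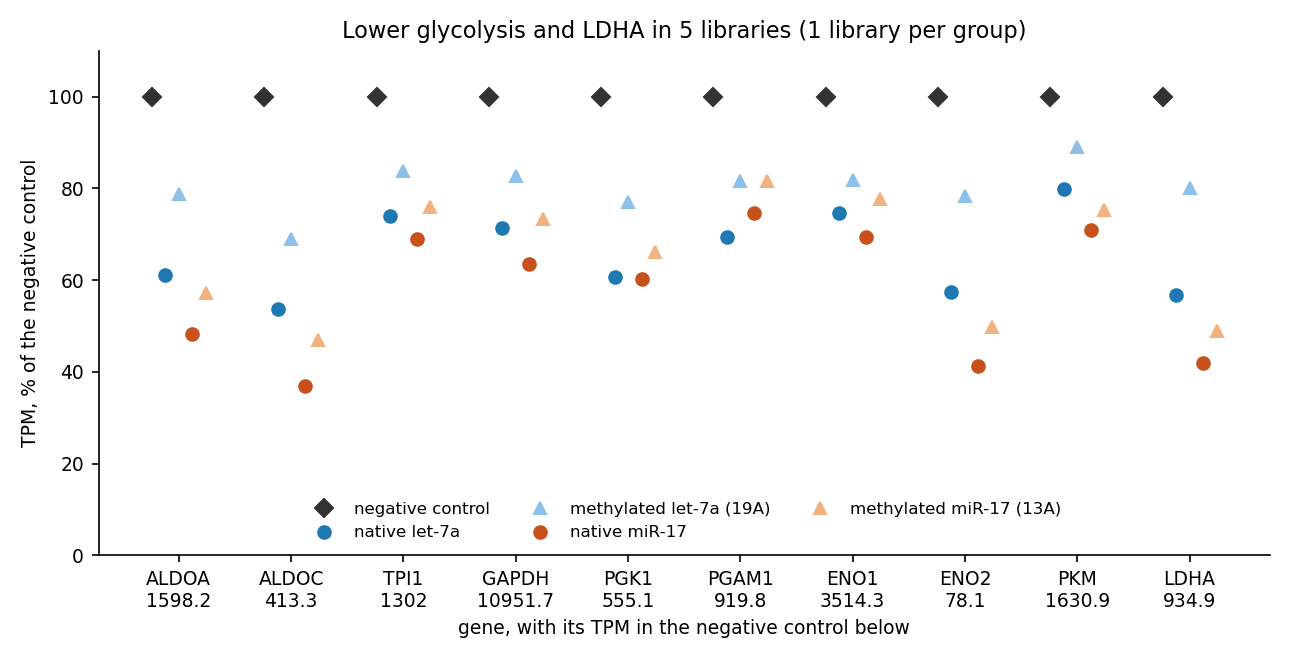
Level of each of the 10 genes in each library, as a percentage of its TPM in the negative control, with the control TPM under the gene name. Each point is 1 library, and no error can be given. All genes lie below 100% in the 4 microRNA libraries, and ALDOA, ALDOC, ENO2 and LDHA lie lowest in both miR-17 libraries.

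Aldolase splits fructose 1,6-bisphosphate into the trioses that feed the lower arm. ALDOA, the form of muscle and most other tissues, had 1598.2 TPM in the control, 975.9 and 1260.1 with the native and the methylated let-7a, and 769.6 and 915.2 with the native and the methylated miR-17. The control was highest and native miR-17 lowest, and each methylated form lay above its native form. The log2 difference of TPM + 1 from the control was -0.71 and -0.34 for the native and methylated let-7a and -1.05 and -0.80 for the native and methylated miR-17. ALDOC, the form typical of brain, had 413.3 TPM in the control, 222.3 and 284.7 with the native and the methylated let-7a, and 152.9 and 193.6 with the native and the methylated miR-17. Its order of libraries was that of ALDOA, and it lay further from the control in all 4 microRNA libraries. It was 2.69-fold lower in TPM + 1 with native miR-17 than in the control, the furthest of the 10 genes, and 75 of the 14177 genes lay further down in that comparison (rank 76). ALDOC was also the furthest member with native let-7a, at -0.89, and with methylated let-7a, at -0.54. It carries the let-7a site printed above and no miR-17 site.

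TPI1 interconverts the products of aldolase. It had 1302.0 TPM in the control, 963.2 and 1090.8 with the native and the methylated let-7a, and 899.1 and 987.6 with the native and the methylated miR-17, the last being 75.9% of the control. GAPDH, which oxidises glyceraldehyde 3-phosphate and is often taken as a constant reference gene, had 10951.7 TPM in the control, 7820.1 and 9063.4 with the native and the methylated let-7a, and 6953.4 and 8028.8 with the native and the methylated miR-17. It ranked 8 from the top of the control library and was not constant here: its log2 difference from the control was -0.49, -0.27, -0.66 and -0.45 in the same order. A gene annotated on the opposite strand across GAPDH exons, RP5-940J5.9 in the table (AC006064.4 in GENCODE 29), was listed at 2799.5 TPM in the control, 1761.9 and 2867.2 with the native and the methylated let-7a, and 2243.7 and 2980.0 with the native and the methylated miR-17, so it did not keep a fixed ratio to GAPDH. The library kit is stranded, but how reads were counted is not given in the sources used here, so reads of the pair may not be told apart. The sum of both was 69.7%, 86.8%, 66.9% and 80.1% of the control, still below it in all 4 libraries.

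PGK1, the first ATP-forming step, had 555.1 TPM in the control, 336.3 and 427.3 with the native and the methylated let-7a, and 334.4 and 366.9 with the native and the methylated miR-17. Unlike the aldolases, it was nearly as low with native let-7a (-0.72) as with native miR-17 (-0.73). PGAM1, which moves the phosphate on 3-phosphoglycerate, had 919.8 TPM in the control, 638.1 and 750.5 with the native and the methylated let-7a, and 687.2 and 751.3 with the native and the methylated miR-17. It was the 1 member lowest with native let-7a, and its values with the methylated forms were about equal, at 81.6% and 81.7% of the control.

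Enolase makes phosphoenolpyruvate. ENO1, the widespread form, had 3514.3 TPM in the control, 2624.1 and 2877.1 with the native and the methylated let-7a, and 2439.1 and 2728.3 with the native and the methylated miR-17. ENO2, the neuronal form, was the least abundant member, with 78.1 TPM in the control, 44.9 and 61.1 with the native and the methylated let-7a, and 32.2 and 38.8 with the native and the methylated miR-17. The log2 difference from the control with native miR-17 was -0.53 for ENO1 and -1.25 for ENO2. ENO2 holds the miR-17 site printed above. PKM, the pyruvate kinase of most tissues and tumours, had 1630.9 TPM in the control, 1303.2 and 1450.9 with the native and the methylated let-7a, and 1158.3 and 1226.2 with the native and the methylated miR-17. It was the member nearest to the control in both let-7a libraries, at 79.9% and 89.0% of it. The gene-level values do not separate its splice forms, and the splicing factors PTBP1, HNRNPA1, HNRNPA2B1 and SRSF3 lay between -0.35 and 0.13 of the control on the log2 scale in the 4 libraries.

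LDHA, the lactate dehydrogenase subunit that HIF is known to induce, had 934.9 TPM in the control, 530.0 and 748.6 with the native and the methylated let-7a, and 391.6 and 456.5 with the native and the methylated miR-17. It stood at 41.9% and 48.8% of the control with the native and the methylated miR-17, against 80.1% with methylated let-7a, a wider gap in percentage points than for any other member. Its log2 difference with native miR-17 was -1.25, between those of ALDOA (-1.05) and ALDOC (-1.43).

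Not all isozymes of the same steps were lower. LDHB, the other main lactate dehydrogenase subunit, had 1185.2 TPM in the control, 1232.4 and 1120.2 with the native and the methylated let-7a, and 1230.6 and 1266.3 with the native and the methylated miR-17, a log2 difference from the control between -0.08 and 0.10. LDHA made up 44.1% of the LDHA and LDHB transcripts in the control, 30.1% and 40.1% with the native and the methylated let-7a, and 24.1% and 26.5% with the native and the methylated miR-17. The subunit makeup of the transcripts therefore differed between the libraries, while protein was not measured. ENO3, the muscle enolase, went the other way from ENO1 and ENO2 at a low level, with 2.9 TPM in the control, 4.0 and 4.2 with native and methylated let-7a, and 7.7 and 7.1 with native and methylated miR-17. ALDOC made up 20.5% of the aldolase A and C transcripts in the control, 18.6% and 18.4% with native and methylated let-7a, and 16.6% and 17.5% with native and methylated miR-17. Of the 12 other isozymes listed, LDHB and ENO3 were the only ones averaging 1 TPM or more. PKLR, PGK2, LDHC and the rest were at or near 0.

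**Figure D2:**
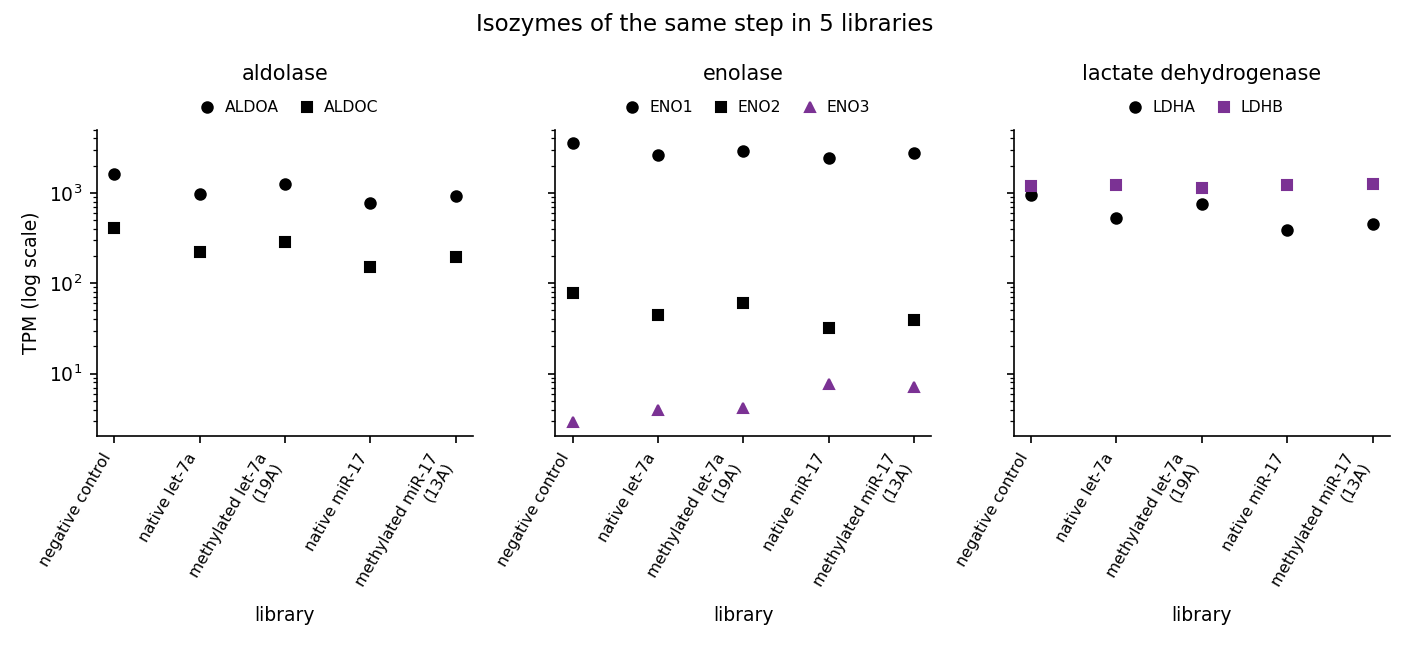
TPM on a log scale for the isozymes of aldolase, enolase and lactate dehydrogenase in the 5 libraries, with members in black and other isozymes in purple. LDHB stays between 1120.2 and 1266.3 TPM while LDHA ranges from 391.6 to 934.9 TPM.

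Near-identical copies were listed at low values in this table. Of 93 pseudogene rows named after the members, 58 of them for GAPDH, 88 were listed at 0 in all libraries, and the highest value was 2.3 TPM for TPI1P2. How reads that match several copies were assigned is not given in the sources used here. Of the genes overlapping other members' exons, SPSB2 across TPI1 reached 12.1 TPM, ATP7A across PGK1 8.1 TPM and ENO1-AS1 2.1 TPM, far under the members themselves. Across ALDOA, the protein-coding AC093512.2 on the same strand and the antisense AC093512.1 had no values here, so their levels are unknown.

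Measured against the control, native let-7a had all 10 members lower, where 47.9% of all genes were, with a median log2 difference of -0.62 against 0.0 over all genes. ALDOA, ALDOC, PGK1, ENO2 and LDHA, 5 of 10, were at least 1.5-fold lower, a rule of size that 3.85% of all genes met. None reached 2-fold. Among the 416 most abundant genes, those averaging 300 TPM or more, the median was 0.09 and 2.40% were at least 1.5-fold lower. The 416 include 8 of the 10 members, and ALDOA, PGK1 and LDHA are among the 10 genes behind that share.

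With methylated let-7a the members were again all below the control, where 56.1% of all genes were, at a median of -0.31 against -0.04 for all genes. The differences ran from -0.54 (ALDOC) to -0.17 (PKM), and 0 of 10 were at least 1.5-fold lower, a size met by 2.96% of all genes.

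Under native miR-17 all 10 were below the control, beside 46.5% of all genes, at a median of -0.69 against 0.02. ALDOA, ALDOC, GAPDH, PGK1, ENO2 and LDHA, 6 of 10, were at least 1.5-fold lower, as were 5.93% of all genes. ALDOA, ALDOC, ENO2 and LDHA were also at least 2-fold lower, as were 1.71% of all genes. ENO2 and LDHA ranked 116 and 115 from the lowest of the 14177.

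Under methylated miR-17 all 10 were also lower, as were 56.3% of all genes, at a median of -0.52 against -0.06. ALDOA, ALDOC, PGK1, ENO2 and LDHA were at least 1.5-fold lower, a count of 5 beside 10.1% of all genes. ALDOC and LDHA were at least 2-fold lower, beside 2.36% of all genes. The 4 comparisons share the control library, so their directions are not independent of each other, and a high control library and low microRNA libraries cannot be told apart. With the 2 miR-17 libraries as the reference in place of the control, the median of the members was 0.10 for native and 0.28 for methylated let-7a, above and no longer below the reference. With the 2 let-7a libraries as the reference, it was -0.26 for native and -0.12 for methylated miR-17.

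**Figure D3:**
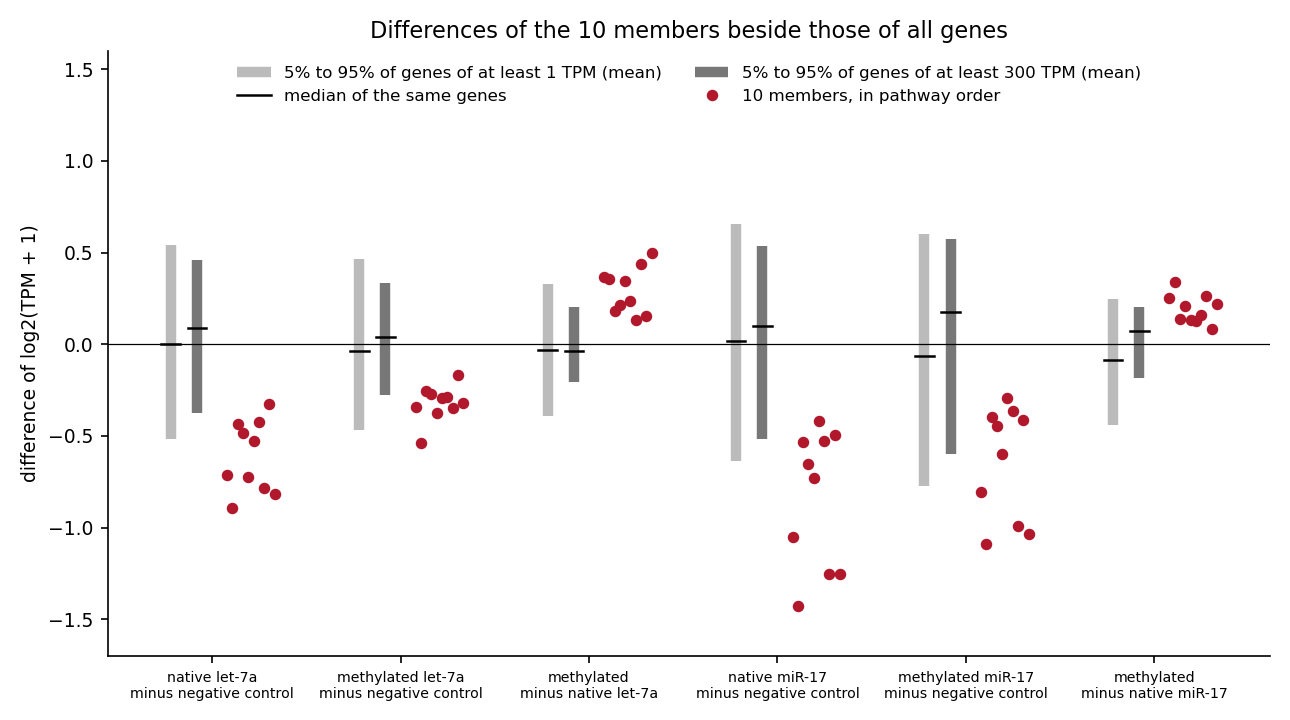
Differences of log2(TPM + 1) of the 10 members (red points, in pathway order from ALDOA to LDHA) in the 6 comparisons. Grey bars span 5% to 95% of the genes averaging 1 TPM or more (light) and 300 TPM or more (dark), with their medians in black. The members lie below 0 against the control and above 0 in both comparisons of a methylated with a native form.

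The comparisons of methylated with native forms do not use the control library and share no library with each other. With let-7a, all 10 members were higher with the methylated form, where 39.8% of all genes were (50.6% after median-ratio scaling), at a median of 0.29 against -0.03. LDHA had the largest difference (0.50, 748.6 against 530.0 TPM), then ENO2 (0.44) and ALDOA (0.37), and ENO1 the smallest (0.13). With miR-17, all 10 were again higher with the methylated form, where 28.4% of all genes were (49.7% after median-ratio scaling), at a median of 0.18 against -0.09. ALDOC had the largest difference (0.34, 193.6 against 152.9 TPM), then ENO2 (0.26) and ALDOA (0.25), and PKM the smallest (0.08). No member was 1.5-fold higher in either pair, as 2.18% of all genes were in the let-7a pair and 1.54% in the miR-17 pair. Across the 10 members the differences of both pairs correlated with Pearson's r of 0.63, against -0.08 over the 14177 genes. Other comparisons that share no library gave larger r in size over the members. The let-7a pair had -0.86 and -0.88 with native and methylated miR-17 minus the control (all genes -0.13 and -0.17). The miR-17 pair had -0.80 and -0.81 with native and methylated let-7a minus the control (all genes 0.11 and 0.06). Members further below the control with a microRNA thus tended to be further up in the pair of the other. These are descriptions over genes, which are not independent.

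In the miR-17 pair the direction over all genes went with transcript level. Of the same 416 abundant genes, 70.7% were higher with methylated miR-17, at a median of 0.07, nearer to the members' 10 of 10 than the 28.4% of all genes. Genes whose longest 3′ UTR exceeds that of every member were higher in 11.3% of cases, at a median of -0.17, and the 10005 with none longer in 30.3%, at -0.07. In the let-7a pair, the abundant genes had a median of -0.04, with 38.0% higher, and the order by 3′ UTR was the opposite, with 51.2% of the long class higher (median 0.01) against 36.2% of the others (-0.04). The part of transcript level and 3′ UTR length in the members' differences was not tested. In TPM, methylated let-7a showed between 46.0% (LDHA) and 71.6% (ENO1) of the decrease seen with its native form, and methylated miR-17 between 72.4% (PGAM1) and 88.1% (LDHA). These shares use the control library on both sides.

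Genes around the members in the pathway did not all follow them. Glucose uptake and upper glycolysis, 10 listed genes, had medians of -0.61 and -0.31 for the native and methylated let-7a and -0.89 and -0.84 for the native and methylated miR-17, with 9 of 10 below the control each time. They included the glucose transporters SLC2A1 (608.6 TPM in the control and 235.7 under native let-7a) and SLC2A3 (21.6 and 5.8 TPM). Hexokinase HK2, which has a let-7a site and no miR-17 site, had 79.5 and 38.5 TPM in the same libraries. It had 59.3 TPM with methylated let-7a, and 37.6 and 37.1 with native and methylated miR-17. The phosphofructokinase PFKP, which has a miR-17 site and no let-7a site, had 160.7 TPM in the control and 52.1 with native miR-17. It had 56.8 TPM with methylated miR-17, and 110.3 and 126.4 with native and methylated let-7a. PFKL was above the control in all 4 libraries. In the let-7a pair, 9 of 10 were higher with the methylated form (median 0.28). In the miR-17 pair 4 of 10 were, with a median of -0.02, and GPI, at 0.21, had the highest value. The 12 expressed non-glycolytic hypoxia genes had 12 of 12 higher with methylated let-7a (median 0.63) and 5 of 12 higher with methylated miR-17 (median -0.004). ANGPTL4, CA9, NDRG1 and BNIP3 were the furthest of them, with ANGPTL4 at 57.5 TPM in the control, 12.7 and 32.8 with native and methylated let-7a and 11.3 and 10.7 with native and methylated miR-17. The difference between these lists and the members in the miR-17 pair was not tested, since 1 library stands on each side.

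Steps after pyruvate were mostly near the control. The 17 genes of pyruvate and lactate fate had medians between -0.10 and 0.18 in the 4 comparisons. PDK1, a kinase that turns off pyruvate dehydrogenase, was the 1 gene to reach 2-fold, with 4.4 TPM in the control, 1.9 and 2.9 with native and methylated let-7a and 1.7 in both miR-17 libraries. PDK1 has 1 miR-17 site. The lactate exporter SLC16A3 had 224.9 TPM in the control and 158.6 to 207.0 TPM in the other libraries. The 15 genes of the tricarboxylic acid cycle had medians between 0.03 and 0.11, and none was 1.5-fold from the control.

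**Figure D4:**
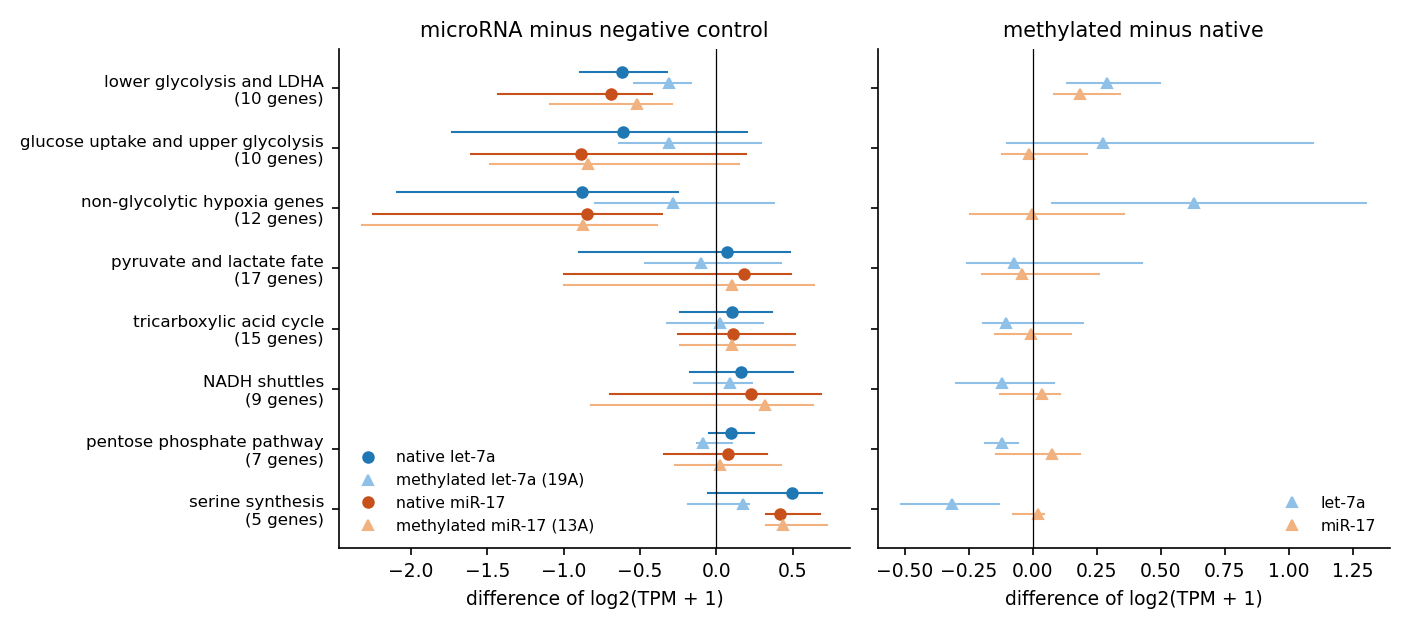
Median (symbol) and range (line) of the differences of log2(TPM + 1) over the expressed genes of each list, against the control on the left and methylated minus native on the right. The medians of lower glycolysis, upper glycolysis and hypoxia genes lie to the left of 0 against the control. In the miR-17 pair the median is 0.18 for lower glycolysis, -0.02 for upper glycolysis and -0.004 for hypoxia genes.

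Among regulators, HIF1A, the oxygen-regulated HIF subunit, had 161.7 TPM in the control, 177.1 and 159.9 with the native and the methylated let-7a, and 109.6 and 105.5 with the native and the methylated miR-17. It has 1 miR-17 site. EPAS1, which encodes HIF-2 alpha and has 3, had 47.9, 40.3, 44.6, 25.7 and 25.3 TPM in the same order. Both were lower in the miR-17 libraries and between -0.24 and 0.13 of the control on the log2 scale in the let-7a libraries. ARNT, their partner, stayed between 30.0 and 32.9 TPM, and MYC, which also binds glycolytic promoters, between 232.9 and 284.2 TPM. EGLN3, an oxygen sensor that HIF induces, had 9.2 TPM in the control, 4.1 and 6.1 with native and methylated let-7a and 3.2 and 3.3 with native and methylated miR-17. EGLN3 also has 1 miR-17 site, in a 3′ UTR other than its longest. HIF protein and oxygen were not measured in these libraries.

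Because the members were lower together, the 250 bases before each RefSeq start were searched on both strands for the HIF core ACGTG, and CACGTG, which holds it on both strands, was counted once. Of the 10 members 7 had it in at least 1 window, against 29.03% of the 9480 expressed genes with a window. Over windows it was 9 of 14, against 18.5% of all 35116 and 22.3% of the 13890 of expressed genes. The core GCGTG was in 5 of 14 windows (ALDOC, TPI1, PGK1, ENO1 and the second LDHA window), against 32.2% of all and 43.7% of those of expressed genes. The windows with more than 1 ACGTG (the first of 2 for LDHA, and those of ALDOC and PGK1) are shown beside that of ENO2, with 1, and that of PKM, with neither core (GRCh38.p14, RefSeq, read 5′ to 3′ on the gene's strand), with ACGTG or its complement in capitals.
LDHA, chr11:18394313-18394562, plus strand: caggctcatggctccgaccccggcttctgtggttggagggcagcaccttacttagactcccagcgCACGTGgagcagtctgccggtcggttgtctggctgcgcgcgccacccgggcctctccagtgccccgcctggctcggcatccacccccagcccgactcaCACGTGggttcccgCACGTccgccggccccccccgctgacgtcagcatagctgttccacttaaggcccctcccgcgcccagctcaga
ALDOC, chr17:28576896-28577145, minus strand: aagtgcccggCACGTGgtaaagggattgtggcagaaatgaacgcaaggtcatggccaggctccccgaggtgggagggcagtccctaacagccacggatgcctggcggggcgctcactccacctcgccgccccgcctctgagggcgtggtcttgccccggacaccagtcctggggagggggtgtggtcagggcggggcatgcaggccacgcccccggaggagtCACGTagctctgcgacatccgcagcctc
PGK1, chrX:78103998-78104247, plus strand: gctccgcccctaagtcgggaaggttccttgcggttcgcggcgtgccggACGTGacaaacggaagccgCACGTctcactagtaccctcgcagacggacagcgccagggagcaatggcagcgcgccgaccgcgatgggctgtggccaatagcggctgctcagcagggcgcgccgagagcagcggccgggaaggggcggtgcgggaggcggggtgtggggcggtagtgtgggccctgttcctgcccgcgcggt
ENO2, chr12:6914330-6914579, plus strand: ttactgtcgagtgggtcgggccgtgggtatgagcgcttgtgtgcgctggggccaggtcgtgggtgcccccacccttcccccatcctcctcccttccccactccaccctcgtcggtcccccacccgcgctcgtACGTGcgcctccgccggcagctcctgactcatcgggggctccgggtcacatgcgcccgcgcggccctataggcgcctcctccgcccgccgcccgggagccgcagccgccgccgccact
PKM, chr15:72231191-72231440, minus strand: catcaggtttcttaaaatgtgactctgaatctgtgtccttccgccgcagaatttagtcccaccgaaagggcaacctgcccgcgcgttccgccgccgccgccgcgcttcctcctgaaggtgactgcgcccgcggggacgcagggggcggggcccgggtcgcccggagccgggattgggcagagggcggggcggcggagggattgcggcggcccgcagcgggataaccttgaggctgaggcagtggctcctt
The LDHA window shown had 3 such matches, ALDOC and PGK1 2 each and ENO2 1, while the second LDHA window had 0. The 3 members without ACGTG, PGAM1, ENO1 and PKM, had log2 differences of -0.42, -0.53 and -0.49 with native miR-17, and the 7 with it lay between -1.43 and -0.53. These ranges barely parted: ENO1, without it, was at -0.527 and TPI1, with it in only 1 window, at -0.534. In the other comparisons with the control the ranges overlapped. PGAM1, without ACGTG, lay below TPI1, with it, under native let-7a (-0.53 against -0.43) and methylated let-7a (-0.29 against -0.26). PKM lay below TPI1 under methylated miR-17 (-0.41 against -0.40). A relation of these letters to the differences was not tested. Of those 3, ENO1 had 2 matches to the other core, GCGTG. A match of these letters is a description of the sequence, and binding was not measured.

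By pattern over the 5 libraries, the gene nearest to the average of the members among 6213 others averaging 20 TPM or more was GPI, the glucose-6-phosphate isomerase, at a Euclidean distance of 0.07 between log2 values centred on each gene's mean. It had 372.8 TPM in the control, 229.2 and 293.5 with the native and the methylated let-7a, and 200.4 and 231.9 with the native and the methylated miR-17. The next were NFIL3, PLAUR, FAM162A, INSIG2, C4orf3, AK4, BNIP3L, CAV1 and SRPX, at distances of 0.12 to 0.19. Of the members, GAPDH (0.17), PGK1 (0.17) and ALDOA (0.18) lay closest to their average and ALDOC (0.45) furthest.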

How the data were processed

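RNA was measured in 5 libraries, 1 for each transfection. Extraction used Isogen and libraries the TruSeq Stranded Total RNA kit with ribosomal RNA removal, per the labels' protocols. The build was hg19, per the submitters' processing notes. The authors deposited gene-level TPM values to 1 decimal, with aligner, counting tool and annotation not given in the sources used here. Read depth is therefore unknown, and no interval or detection limit is given.

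Differences between libraries were taken on log2(TPM + 1) in the 14177 genes averaging 1 TPM or more, with Python 3.11.15, pandas 2.3.3 and numpy 2.4.6. A fold of at least 1.5 or 2 in TPM + 1 is a rule of size, not a test. The pseudocount understates the differences of low genes. The calculation was run on simulated data, made from the control library with set changes and no noise. This checks the arithmetic alone, not differences between single libraries. The members and lists were chosen with earlier results of these data known. All 10 members are named. Other genes are named from lists when expressed and at least 2-fold apart in 1 of the 6 comparisons, at most 4 a list, as are isozymes with a mean of at least 1 TPM and the 10 genes of nearest pattern; other list members in the text (PKLR, PGK2, LDHC, PFKL, GPI, SLC16A3, HIF1A, EPAS1, ARNT, MYC and the splicing factors) were added after their values were seen. Genes missing by symbol were matched by Ensembl ID (SDHD and TIGAR). Sites and 3′ UTRs came from GENCODE 29, promoters and microRNAs from RefSeq (GRCh38.p14), another build than the deposited table, and served for sequence alone. Alternatives were the pseudocount, the filter, 2 rescalings and another reference. The sequence and position of 1 further seed match are not reported here.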

Additional observations from a re-analysis of the deposited data

Results flagged for a closer look

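Among 67 results compared, the members, the other genes given with values and the list medians, 3 had differences of at least 0.1 in size and opposite sign in the comparisons of methylated with native forms. EGLN1, an oxygen-sensing prolyl hydroxylase, had a log2 difference of 0.37 with let-7a (35.1 against 26.9 TPM) and -0.24 with miR-17 (19.7 against 23.4 TPM). EGLN1 has 1 miR-17 site. SLC16A3, the lactate exporter, had 0.17 with let-7a (207.0 against 183.7 TPM) and -0.12 with miR-17 (158.6 against 172.7 TPM). The mesenchymal markers had medians of -0.24 with let-7a and 0.12 with miR-17, over the 2 of 6 that averaged 1 TPM or more, VIM and COL1A1, both under 20 TPM. These contrasts were not tested, since each side rests on 1 library. All 10 members had the same sign in both pairs.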

How the results depend on the processing

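No paired analysis was possible because each group holds 1 library. For the same reason no library could be left out. The median of the members and their count at 1.5-fold were recomputed in all 6 comparisons with a pseudocount of 0.1 or 5, no filter or a mean of at least 5 TPM, a median-ratio scaling, and a scaling without mitochondrial and ribosomal protein genes. Under these the medians moved by less than 0.1, the counts by no more than 1.5 times (with methylated miR-17, 4 in place of 5 after median-ratio scaling), and all members kept their sign. Another reference changed the results. With the miR-17 libraries in place of the control, the median turned from -0.62 to 0.10 for native let-7a and from -0.31 to 0.28 for methylated let-7a, and the counts went from 5 to 0 and from 0 to 4. ALDOA (0.22), ALDOC (0.37), ENO2 (0.34) and LDHA (0.33) then lay above the reference with native let-7a. With the let-7a libraries in place of the control, the median was -0.26 for native and -0.12 for methylated miR-17, and the counts went from 6 to 3 and from 5 to 0. The cause was not tested. The count of all genes at least 1.5-fold lower depended on the pseudocount and the filter: with native let-7a it was 546 as reported, 196 with a pseudocount of 5, 1058 without a filter and 265 with a mean of at least 5 TPM, and with native miR-17 it was 840, 408, 1319 and 543. With methylated let-7a it was 420, 109, 942 and 156 (673 with a pseudocount of 0.1), and with methylated miR-17 1433, or 640 with a pseudocount of 5 and 930 against the let-7a libraries. Median-ratio scaling took the share of all genes above 0 from 39.8% to 50.6% in the let-7a pair and from 28.4% to 49.7% in the miR-17 pair, with all 10 members still above 0. In a background of genes of at least 50 or 300 TPM, added after the values were seen, the share was 1.66% or 2.40% with native let-7a (3.85% of all genes), 0.827% or 0.481% with methylated let-7a (2.96%), 4.79% or 4.09% with native miR-17 (5.93%) and 6.69% or 5.77% with methylated miR-17 (10.1%). Depth is unknown, so counting error cannot be given, even for ENO2, the least abundant member.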

Other observations

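Branches that leave glycolysis did not follow the lower arm. Serine synthesis, which draws on 3-phosphoglycerate, was above the control in 4 of 5 genes with native let-7a (median log2 difference 0.50). The count was 4 of 5 with methylated let-7a (0.18), and 5 of 5 with native (0.42) and methylated miR-17 (0.44). Of all genes, 49.9%, 41.0%, 51.6% and 42.1% were above the control in the same order. PHGDH, the first enzyme of serine synthesis, had 231.4 TPM in the control, 326.6 and 259.0 with the native and the methylated let-7a, and 371.7 and 383.5 with the native and the methylated miR-17. PSAT1, the next, had 400.9, 647.5, 453.0, 631.2 and 597.4 TPM in the same order. In the let-7a pair all 5 genes were lower with the methylated form (median -0.32), where 57.1% of all genes were. That is the opposite sign to the 10 members, and in the miR-17 pair the median was 0.02.

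PCK2, the mitochondrial enzyme that makes phosphoenolpyruvate from oxaloacetate, had 58.2 TPM in the control, 101.9 and 72.2 with native and methylated let-7a, and 124.6 and 119.1 with native and methylated miR-17, so that it was highest where PKM, which consumes phosphoenolpyruvate, was lowest. The cytosolic PCK1 was listed at 0 in all libraries. GOT1, of the malate-aspartate shuttle that also returns cytosolic NAD+, had 157.6 TPM in the control, 223.3 and 180.9 with native and methylated let-7a, and 237.4 and 245.2 with native and methylated miR-17. The glycerol phosphate enzyme GPD2 had 36.7, 32.4, 34.4, 22.3 and 20.3 TPM in the same order. The 7 genes of the pentose phosphate pathway had medians between -0.09 and 0.09 of the control. PHGDH, PSAT1, GOT1 and GPD2 were picked after their values were seen.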
